A study of Sus scrofa with 32 samples.

Results

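The PIWI-interacting RNA (piRNA) pathway of germ cells was examined in testis RNA of 32 pigs. Its genes were taken from a list of 10 symbols: PIWIL1, PIWIL2, PIWIL4, TDRD1, TDRD5, TDRD9, MAEL, DDX4, MOV10L1 and ASZ1. Each symbol was matched to an Ensembl identifier of the count tables, which hold 25322 identifiers. Of the 10 symbols, 8 had an identifier. PIWIL1 and MOV10L1 had none and were not analysed here. PRM1 (ENSSSCG00000021337), which encodes a protamine that packs the DNA of elongating spermatids, was measured beside them.

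piRNAs are short RNAs of germ cells that guide PIWI proteins to transposon transcripts and, during meiosis, to other long transcripts. They are made in a perinuclear and mitochondria-bound granule called nuage, where Tudor domain proteins dock on methylated arginines of the PIWI proteins. In mouse, loss of most of these proteins releases transposons and arrests spermatogenesis. The testis holds germ cells at many stages, so a bulk library mixes cells with and without an active pathway. In such libraries fewer cells of a type and less RNA per cell cannot be told apart.

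The pigs were Danish crossbred males of Duroc with Landrace/Yorkshire, slaughtered near 100 kg. The labels sort 31 of them into High AS or Low AS, where AS stands for androstenone and skatole, the compounds behind boar taint. The High AS group held 7 pigs fed chicory and 10 fed the control diet. The Low AS group held 7 fed chicory and 7 fed the control diet. The chicory diet held 15% chicory and was fed for 3 days before slaughter. One more pig on chicory had no AS group and no androstenone value. Androstenone lay between 0.67 and 7.77 mg/kg in High AS pigs on control diet and between 1.12 and 5.9 mg/kg in those on chicory. It lay between 0 and 1.07 mg/kg in Low AS pigs on chicory and between 0 and 1.04 mg/kg in those on control diet. The ranges of the AS groups therefore overlapped, but only through the High AS pig at 0.67 mg/kg, as the next lowest had 1.09 mg/kg. Skatole was given for some pigs only, and the pig at 0.67 mg/kg of androstenone had the highest, 0.615 mg/kg. The pigs came from 14 sows, and 7 sows had pigs in both AS groups.

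Libraries held 1855174 to 20349500 counts in genes, with a median of 4061083. Their names fall into 8 numbered libraries, of 10585625 to 20349500 counts, and 24 plain libraries, of 1855174 to 5993637 counts. High AS pigs gave 6 of the numbered libraries and Low AS pigs gave 2. Lane 7 held 4 libraries, all of them numbered and all from High AS pigs. No model held a term for lane. Every main model held a term for library set, and correlations were computed within each set. All markers of spermatocytes, spermatids, Sertoli cells and Leydig cells with an identifier passed the filter on low counts (17 spermatocyte, 14 round and 17 elongating spermatid, 9 Sertoli and 8 Leydig markers). Of the other lists, 6 of 12 spermatogonia, 2 of 5 macrophage, 1 of 2 blood and 0 of 3 epididymis markers passed. The Low AS pig on chicory numbered replicate 1 stood apart. It had the lowest levels of the round and elongating spermatid lists and the highest level of the spermatogonia list. Its mean log2 CPM (a gene's counts scaled to the size of its library) over the spermatogonia list was 4.93, against 3.41 in the next highest pig. A second library, High AS control replicate 3, held the lowest level of 4 of the pathway genes. Results that rest on either pig are given with and without it, except for the genes most like each pathway gene.

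All of the genes but PIWIL4 had counts in every pig. CPM values below are scaled by the trimmed mean of M values and refer to counts in the genes tested. Gene lengths were not available in the tables used here, so levels are compared between pigs and not between genes.

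PIWIL2 (ENSSSCG00000030228), the PIWI protein that in mouse cuts transposon RNA to make new piRNAs, was read in all 32 pigs. It had 6.88 CPM in the lowest High AS pig, a median of 18.1 CPM and 62.8 CPM in the highest. In Low AS pigs the lowest value was 9.29 CPM, the median 24.5 CPM and the highest 57.0 CPM. The range of Low AS pigs lay inside that of High AS pigs. Across pigs its highest level was 9.13 times its lowest.

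PIWIL4 (ENSSSCG00000014959) encodes the nuclear PIWI protein, which in mouse directs DNA methylation of transposons in fetal germ cells. It was near the limit of detection, with 0 counts in 5 of 32 pigs. In those 5 libraries, 3 counts would have been 0.609 to 1.09 CPM. It had 0, 0.832 and 1.81 CPM in the lowest, median and highest High AS pigs. In Low AS pigs these values were 0, 0.827 and 11.5 CPM. The 11.5 CPM of Low AS chicory replicate 1 rest on 23 counts, with an exact 95% Poisson interval of 7.26 to 17.2 CPM that covers counting error only. The next highest pig, High AS chicory replicate 5, had 1.81 CPM from 37 counts, with an interval of 1.27 to 2.49 CPM. PIWIL4 was the 1 gene of the 8 that did not pass the filter on low counts in the main models, so 7 genes were tested.

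DDX4 (ENSSSCG00000016913) is the germ cell RNA helicase VASA, a component of nuage. It had 35.6 CPM in the lowest High AS pig, 132 CPM at the median and 167 CPM in the highest. The Low AS values were 45.8, 138 and 182 CPM. The 4 lowest values came from 3 numbered libraries and from Low AS chicory replicate 1. MAEL (ENSSSCG00000006316), maelstrom, is a nuage protein needed for piRNA-guided silencing in mouse. Its High AS values were 97.1, 164 and 228 CPM, and its Low AS values 80.7, 177 and 216 CPM. The AS groups overlapped over nearly their whole range for both genes.

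Of the Tudor proteins, TDRD1 (ENSSSCG00000021075), a scaffold that binds methylated PIWI proteins, had 98.3, 165 and 310.3 CPM in the lowest, median and highest High AS pigs. It had 132, 178 and 286 CPM in Low AS pigs. TDRD5 (ENSSSCG00000015527), which in mouse is required for the chromatoid body of spermatids, had 28.0, 61.0 and 90.6 CPM in High AS pigs. In Low AS pigs it had 17.4, 56.7 and 86.0 CPM, the lowest in Low AS chicory replicate 1. TDRD9 (ENSSSCG00000002552), which joins a Tudor domain to an RNA helicase, had 19.3, 34.4 and 41.6 CPM in High AS pigs and 24.6, 36.7 and 43.7 CPM in Low AS pigs. Its highest level was 2.27 times its lowest, the narrowest span of the tested genes.

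ASZ1 (ENSSSCG00000016627), also called GASZ, anchors nuage at the mitochondrial outer membrane. In High AS pigs it had 7.46, 13.6 and 24.5 CPM on chicory and 6.88, 22.5 and 40.8 CPM on control diet, again as lowest, median and highest. In Low AS pigs it had 14.2, 27.5 and 37.4 CPM on chicory and 8.63, 17.3 and 34.8 CPM on control diet. Every group overlapped every other. The order of the medians placed Low AS pigs on chicory highest and High AS pigs on chicory lowest, with the control diet groups between them.

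**Figure D1:**
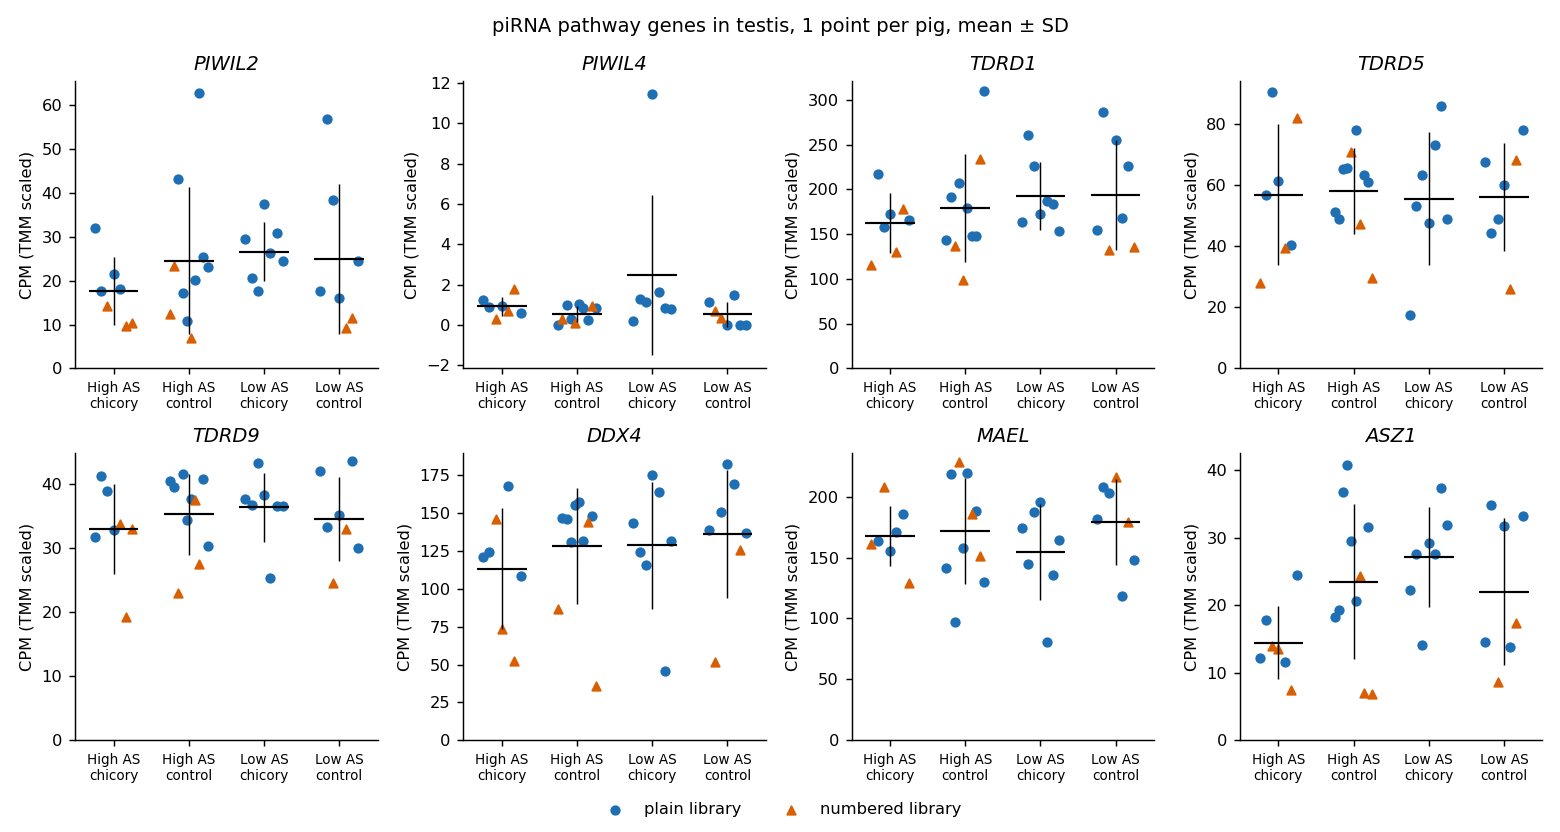
CPM of the 8 measured piRNA pathway genes in each group, 1 point per pig, with the mean as a bar and 1 SD as a vertical line; circles are plain libraries and triangles numbered ones. The groups overlap in every panel, triangles lie low for PIWIL2, DDX4 and ASZ1, and 1 Low AS pig on chicory stands at 11.5 CPM for PIWIL4.

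Spread between pigs was measured as the SD of log2 CPM within library sets. It was 0.23 for TDRD9, 0.34 for TDRD1 and 0.34 for MAEL. DDX4 had 0.50, TDRD5 0.52, PIWIL2 0.58 and ASZ1 0.58. Over all tested genes the median SD was 0.46, and PRM1 had 0.88. TDRD9 was thus steadier between pigs than most genes, with 5.4% of tested genes below it. For ASZ1 that share was 70.2% and for PRM1 94.5%.

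The library sets differed in level. The median log2 CPM in numbered minus plain libraries was -1.24 for ASZ1, -1.09 for PIWIL2 and -0.82 for DDX4. It was -0.49 for TDRD5, -0.39 for TDRD1 and -0.32 for TDRD9. MAEL, at 0.15, and PRM1, at 0.01, differed less, and the median over all genes was -0.01. For ASZ1 the medians were 11.1 CPM in numbered libraries and 26.0 CPM in plain ones. Since 6 of 8 numbered libraries came from High AS pigs, an AS difference computed without a term for library set would carry this difference.

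Between AS groups no pathway gene passed the test. The question was whether testes of boars labelled High AS differ from those labelled Low AS in the silencing machinery of their germ cells. Of 13025 genes tested with edgeR's quasi-likelihood test, 0.0% had a Benjamini-Hochberg adjusted p under 0.05, and 0 of the 7 pathway genes did. At an unadjusted p under 0.05 there were 300 genes in all, 2.3%, and again 0 of the 7. DESeq2 also called 0 genes. The log2 difference of High AS minus Low AS was -0.15 for ASZ1 (SE 0.21) and -0.08 for TDRD1 (SE 0.13). It was -0.03 for PIWIL2 (SE 0.22), -0.01 for MAEL (SE 0.12) and -0.004 for DDX4 (SE 0.17). TDRD9 stood at 0.02 (SE 0.10) and TDRD5 at 0.10 (SE 0.18). PRM1 stood at 0.22 (SE 0.25). Adjusted p-values of these 8 genes were 0.988 or above. Among the 7 pathway genes the 95% interval was narrowest for TDRD9, from -0.18 to 0.21. That of PIWIL2 ran from -0.46 to 0.40 and that of ASZ1 from -0.56 to 0.25.

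The wider pathway was read from a list of 30 further genes, of which 21 had an identifier and 19 were tested. None was called between AS groups. Their estimates were below 0 for 14 of 19, with a median of -0.04, beside 48.4% below 0 and a median of 0.01 over all genes. The pathway genes had 5 of 7 below 0 and a median of -0.01. The smallest p-values of the wider list belonged to PNLDC1, the exonuclease that trims piRNA ends, and MOV10, an RNA helicase related to MOV10L1. PNLDC1 had a log2 difference of -0.31 (SE 0.16, adjusted p = 0.988 by edgeR). MOV10 had -0.35 (SE 0.18, adjusted p = 0.988 by edgeR), and without Low AS chicory replicate 1 its estimate was -0.19. Germ cell markers are set beside these values. All 17 elongating spermatid markers had estimates above 0, with a median of 0.21, and all 6 tested spermatogonia markers had estimates below 0, with a median of -0.34. Leaving out Low AS chicory replicate 1 gave medians of 0.13 and -0.14, with the same counts of 17 and 6. That of the wider list was then -0.08 and that of the pathway genes -0.06. None of those markers was called, and their part in the pathway's values was not tested.

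Against the androstenone concentration ASZ1 had the steepest slope. Slopes are in log2 units of level for each doubling of androstenone after 0.5 mg/kg was added to it. The 4 pigs at 0 mg/kg had 27.5, 33.2, 34.8 and 37.4 CPM of ASZ1, and all 4 were plain libraries. The 3 lowest pigs, at 6.88, 7.04 and 7.46 CPM, had 3.89, 4.74 and 3.75 mg/kg, and all 3 were numbered libraries of lane 7. The highest pig, at 40.8 CPM, had 2.55 mg/kg. High levels of ASZ1 were thus found at 0 mg/kg and at some higher concentrations, while the pigs above 3 mg/kg had 6.88 to 19.3 CPM. Library set enters these raw values, since the medians of ASZ1 were 11.1 CPM in numbered and 26.0 CPM in plain libraries.

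ASZ1 had a slope of -0.28 (SE 0.09, 95% interval -0.46 to -0.10). Its unadjusted p was 0.00404 and its adjusted p 0.852 by edgeR, so it did not pass. Of 13199 genes, 3 were called, 0.0227%, and 0 of the 7 pathway genes were. Unadjusted p-values under 0.05 were found for 668 genes, 5.06%, and for 1 of the 7. Within plain libraries the slope of ASZ1 was -0.24 (SE 0.10), and within numbered libraries it was -0.51 (SE 0.23). Numbered libraries of lane 7 had 1.12 to 4.74 mg/kg and those of lane 6 had 0.52 to 1.46 mg/kg. Lane was therefore not separated from androstenone in the numbered slope. With sow as a block it was -0.11 (SE 0.15). Leaving out single pigs moved it between -0.33 and -0.26.

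TDRD1 had a slope of -0.11 (SE 0.06) and PIWIL2 one of -0.15 (SE 0.10). DDX4 had -0.10 (SE 0.08), TDRD5 -0.07 (SE 0.09) and TDRD9 -0.05 (SE 0.05). MAEL, at 0.03 (SE 0.06), was the 1 gene above 0. Apart from ASZ1, every interval held 0, and the adjusted p-values of these 6 genes were 0.852 or above. PRM1 had a slope of 0.18 (SE 0.12). Slopes were below 0 for 6 of 7 pathway genes and for 17 of 19 genes of the wider list, with medians of -0.10 and -0.08. Over all genes 52.9% were below 0, with a median of -0.01. All genes were read in the same pigs and several were correlated across them, so their signs are not separate observations. In the wider list MORC1, which silences transposons in the mouse germ line, had -0.22 (SE 0.10, adjusted p = 0.852 by edgeR). RNF17, a Tudor and RING finger protein of nuage, had -0.18 (SE 0.09, adjusted p = 0.852 by edgeR). All 17 elongating spermatid markers had slopes above 0, with a median of 0.14, and all 6 tested spermatogonia markers had slopes below 0, with a median of -0.18. These medians were 0.12 and -0.14 without Low AS chicory replicate 1. Their part in the slopes of the pathway genes was not tested.

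**Figure D2:**
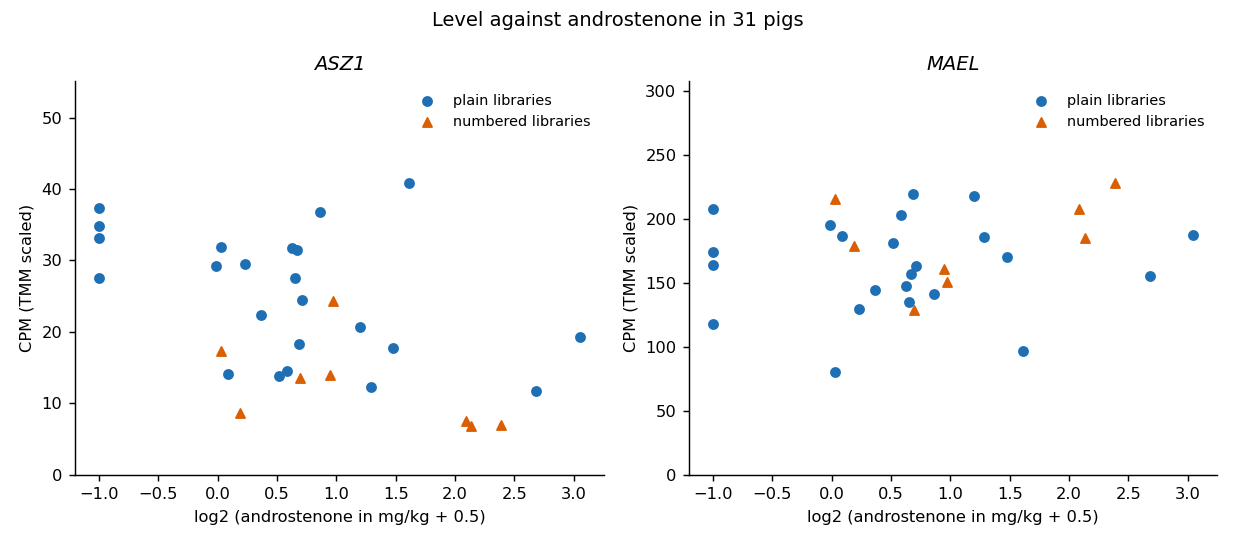
CPM of ASZ1 and MAEL in 31 pigs against the log2 of androstenone plus 0.5 mg/kg, with circles for plain and triangles for numbered libraries. The 4 pigs at 0 mg/kg, at the left, are all circles and lie between 27.5 and 37.4 CPM for ASZ1. The 3 triangles above 3 mg/kg lie near 7 CPM, while MAEL shows no such pattern.

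None of the 7 tested pathway genes passed the test between diets. In the 14 pigs on chicory with an AS label, ASZ1 had 7.46, 20.1 and 37.4 CPM as lowest, median and highest, against 6.88, 20.7 and 40.8 CPM in the 17 pigs on control diet. PIWIL2 had 9.59, 21.0 and 37.5 CPM on chicory and 6.88, 20.1 and 62.8 CPM on control diet. DDX4 had 45.8, 124 and 175 CPM on chicory and 35.6, 144 and 182 CPM on control diet. The diets overlapped for each gene. The range of PIWIL2 on chicory lay inside that on control diet, whose highest pigs were above every pig on chicory. The log2 difference of chicory minus control diet was -0.23 for PIWIL2 (SE 0.21), -0.22 for ASZ1 (SE 0.20) and -0.15 for DDX4 (SE 0.17). It was -0.10 for MAEL (SE 0.12), -0.10 for TDRD1 (SE 0.13), -0.03 for TDRD9 (SE 0.10) and -0.03 for TDRD5 (SE 0.17). By edgeR 1 of 13025 genes was called, 0.00768%, and 0 of the 7 pathway genes, all of which had an adjusted p of 1. No pathway gene reached an unadjusted p under 0.05, which 114 genes did, 0.875%. All 7 estimates lay below 0, as did 48.1% of all genes, and all 7 intervals held 0. With Low AS chicory replicate 1 left out, 6 of 7 lay below 0.

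The wider list had 11 of 19 estimates below 0 for diet, with a median of -0.04 beside 0.01 over all genes, and none was called. Its smallest p-values belonged to TDRD12, a Tudor protein with a helicase domain, at -0.35 (SE 0.20), and TDRKH, a Tudor protein of mitochondria, at -0.27 (SE 0.16). Both had an adjusted p of 1 by edgeR. Round spermatid markers had 13 of 14 estimates below 0, with a median of -0.09, and elongating spermatid markers had 16 of 17 above 0, with a median of 0.11. None was called. These counts were 7 of 14 and 17 of 17 without Low AS chicory replicate 1, with medians of -0.03 and 0.20. Their part in the values of the pathway genes was not tested. PIWIL4 could be fitted when the filter on low counts was dropped. Its log2 difference of chicory minus control diet was then 1.22 (SE 0.46, unadjusted p = 0.0116, adjusted p = 1 by edgeR). Its 0 counts in 4 of 17 pigs on control diet and the 23 counts of Low AS chicory replicate 1 enter that value. Without that pig it was 0.75 (SE 0.40, unadjusted p = 0.0669, adjusted p = 1 by edgeR). With sow as a block the filter was kept and PIWIL4 passed it. In that fit of all pigs its difference was 1.958 (SE 0.49, unadjusted p = 0.0006, adjusted p = 0.65 by edgeR). Without the filter and without sow, the difference was 0.77 (SE 0.63) in High AS pigs and 1.80 (SE 0.72) in Low AS pigs. The Low AS value includes Low AS chicory replicate 1. Without the filter, PIWIL4 had a log2 difference of High AS minus Low AS of -0.52 (SE 0.49). Its androstenone slope was -0.46 (SE 0.25), and neither passed. With that pig also left out, these values were -0.004 (SE 0.45) and -0.35 (SE 0.21).

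**Figure D3:**
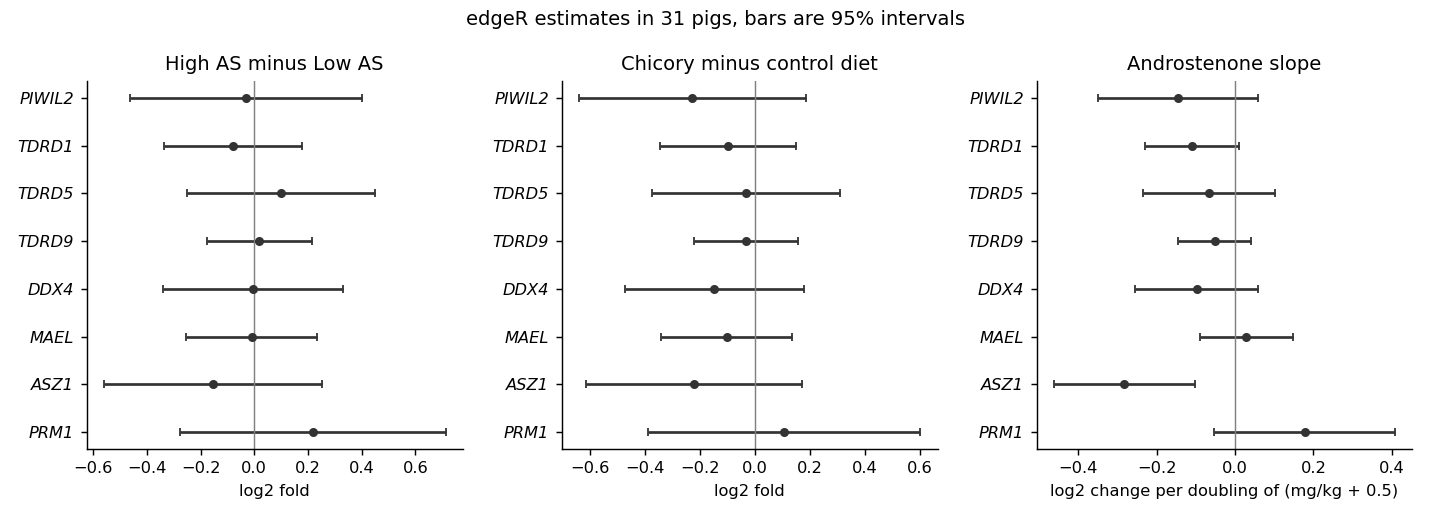
Estimates from edgeR for the 7 tested pathway genes and PRM1, with bars of 95% intervals, for High AS minus Low AS, chicory minus control diet and the androstenone slope in 31 pigs. Every bar crosses 0 except that of ASZ1 for androstenone, at -0.28 with an adjusted p of 0.852.

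The AS difference was also compared between diets. ASZ1 had a log2 difference of High AS minus Low AS of -0.50 (SE 0.31) on chicory and 0.09 (SE 0.26) on control diet. The difference between those values was -0.60 (SE 0.41, adjusted p = 0.951 by edgeR), so it did not exceed the spread between pigs. Without High AS control replicate 8 it was -0.33, and without a term for library set -1.01 (SE 0.47, adjusted p = 0.751 by edgeR). The same difference was -0.23 for PIWIL2 (SE 0.44), 0.15 for DDX4 (SE 0.35), 0.12 for MAEL (SE 0.25) and 0.11 for TDRD5 (SE 0.36). It was -0.04 for TDRD9 (SE 0.20), 0.004 for TDRD1 (SE 0.26) and 0.40 for PRM1 (SE 0.51). Of 13025 genes 0.0% were called by edgeR, and 473 had an unadjusted p under 0.05, 3.63%, none of them among the 7. In the wider list MOV10 had the smallest p, with -0.55 (SE 0.36, adjusted p = 0.951 by edgeR), and without Low AS chicory replicate 1 its value was -0.18. Without that pig and High AS control replicate 3 it was -0.0013 (SE 0.29). PRMT5, the arginine methyltransferase that acts on PIWI proteins, followed at -0.20 (SE 0.19). Within High AS pigs the difference of chicory minus control diet was -0.50 (SE 0.27) for ASZ1, and within Low AS pigs it was 0.10 (SE 0.30).

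The genes did not rise and fall as 1 block across pigs. Correlations of log2 CPM were computed within library sets, for 21 pairs in each, with permutation p-values adjusted over the 42 relations. In the 24 plain libraries 9 pairs passed, 8 of them positive. The share of all gene pairs that would pass was not computed for either library set. The counts of pairs therefore do not show closer coordination than among other genes. DDX4 and TDRD5 had the highest Pearson r, 0.87 (Spearman rho 0.63, adjusted p of r 0.00147). PIWIL2 and ASZ1 had r = 0.75 (rho 0.80, adjusted p 0.00084). PIWIL2 and TDRD1 had r = 0.65 (rho 0.63, adjusted p 0.00756), and TDRD1 and ASZ1 had r = 0.57 (rho 0.55, adjusted p 0.0205). The negative pair that passed was PIWIL2 and MAEL, with r = -0.54 (rho -0.57, adjusted p 0.025). The rho of these 5 pairs passed as well, with adjusted p-values from 0.00084 to 0.0338. Without the 2 pigs farthest from the median of DDX4, its r with TDRD5 was 0.69. Leaving out pigs by the median of ASZ1 in the same way gave 0.76 for PIWIL2 with ASZ1 and 0.57 for TDRD1 with ASZ1. By the median of TDRD1, PIWIL2 with TDRD1 had 0.69, and by that of MAEL, PIWIL2 with MAEL had -0.56.

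PIWIL2, TDRD1 and ASZ1 were thus correlated with each other, and so were DDX4 and TDRD5, while MAEL ran against PIWIL2. Low AS chicory replicate 1 carried other pairs. MAEL and TDRD5 had r = 0.67 (adjusted p 0.00756) with that pig and 0.44 (adjusted p 0.124) without it. MAEL and DDX4 had 0.56 (adjusted p 0.0342) with it and 0.17 (adjusted p 0.55) without it. TDRD9 with DDX4 had 0.61 (adjusted p 0.025) with it and 0.24 (adjusted p 0.447) without it, and TDRD9 with TDRD5 had 0.55 (adjusted p 0.0342) with it and 0.19 (adjusted p 0.514) without it. DDX4 with TDRD1 moved the other way, with 0.35 (adjusted p 0.179) with it and 0.65 (adjusted p 0.00588) without it. DDX4 with TDRD5 was 0.62 without it (adjusted p 0.0125), and PIWIL2 with ASZ1 was 0.77 (adjusted p 0.0021). Without that pig 6 of 21 pairs passed.

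In the 8 numbered libraries 7 pairs passed by the exact permutation test, all positive. TDRD5 with DDX4 had r = 0.96 (adjusted p 0.0099, exact) and PIWIL2 with TDRD1 had r = 0.95 (adjusted p 0.0099, exact). TDRD1 with DDX4 had r = 0.85 (adjusted p 0.0194, exact). The rho of TDRD5 with DDX4 was 0.93 and that of TDRD1 with DDX4 0.88, and both passed (exact adjusted p of 0.0156 and 0.0338). That of PIWIL2 with TDRD1 was 0.83 and did not (exact adjusted p = 0.0646). MAEL had negative r with each of the other 6 genes there, from -0.20 to -0.70, and none passed. Without High AS control replicate 3, which had the lowest PIWIL2, TDRD1, DDX4 and ASZ1 of all pigs, 1 pair passed, TDRD5 with DDX4.

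The genes most like each pathway gene were found across all 32 pigs by Pearson r of log2 CPM, after each library set was centred on its own mean. These values are a description, and the libraries differ in depth. For PIWIL2 they were DCAF8, FANCI and DNMT1, with r of 0.87, 0.87 and 0.86. For TDRD1 they were RNF17, CALM2 and PBK, with 0.86, 0.83 and 0.83. For ASZ1 they included DHX9 and HNRNPH1, with 0.84 and 0.82. For DDX4 they were RNMT, AP2B1 and PKD2L2, each with 0.92. For TDRD5 they were MFSD14A, DDX4 and GMPS, with 0.92, 0.89 and 0.89. For MAEL they were MORN2, ROPN1L and EFCAB11, with 0.92, 0.92 and 0.91. For TDRD9, whose level varied least, they were CDK5RAP2, CFAP74 and TASOR2, with 0.80 each. DDX4 was the 1 pathway gene among the nearest of another, and RNF17 the 1 gene of the wider list.

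PRM1 had 700.2 CPM in the lowest pig, 11187 CPM at the median and 25964 CPM in the highest. The lowest pig was Low AS chicory replicate 1, and the next lowest had 4348 CPM. The r of each pathway gene with PRM1 was computed in both library sets, which gave 14 relations. In plain libraries MAEL had r = 0.73 (rho 0.56, adjusted p of r 0.00224). Without the 2 pigs farthest from the median of PRM1 its r was 0.61. Without Low AS chicory replicate 1 it was 0.56 (adjusted p 0.0264). In numbered libraries MAEL had r = 0.84 (exact permutation p = 0.0118, adjusted 0.0396), and without High AS control replicate 3 the same 0.84 had an exact adjusted p of 0.119. MAEL was higher where PRM1 was higher in both sets.

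ASZ1 ran the other way. In plain libraries its r with PRM1 was -0.50 (rho -0.66, adjusted p of r 0.0382), and -0.67 without the 2 farthest pigs. Without Low AS chicory replicate 1 it was -0.65 (adjusted p 0.00644). In numbered libraries it was -0.67 (exact adjusted p = 0.148). PIWIL2 had r = -0.33 (adjusted p 0.169) and rho = -0.61 (adjusted p 0.0141) in plain libraries. Without Low AS chicory replicate 1 its r was -0.61 (adjusted p 0.0121), and in numbered libraries it was -0.43 (exact adjusted p = 0.33). TDRD1 had -0.21 (adjusted p 0.341) in plain and -0.60 (exact adjusted p = 0.169) in numbered libraries.

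For TDRD5, TDRD9 and DDX4 the relation to PRM1 rested on 1 pig. TDRD5 had r = 0.68 in plain libraries (rho 0.18, adjusted p of r 0.0396), and 0.10 without Low AS chicory replicate 1 (adjusted p 0.658). TDRD9 had 0.55 (rho 0.14, adjusted p of r 0.0396) with that pig and 0.13 (adjusted p 0.612) without it. DDX4 had 0.62 (rho -0.18, adjusted p of r 0.0956) with that pig and -0.36 (adjusted p 0.176) without it. In numbered libraries r was -0.54 for TDRD5, -0.70 for TDRD9 and -0.51 for DDX4, with exact adjusted p-values from 0.12 to 0.226. For scale, the median r of all genes with PRM1 was -0.02 in plain libraries, and 49.1% of genes had a positive r. Without Low AS chicory replicate 1, 2.3% of genes had an r below that of ASZ1, 4.1% below that of PIWIL2 and 89.5% below that of MAEL.

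**Figure D4:**
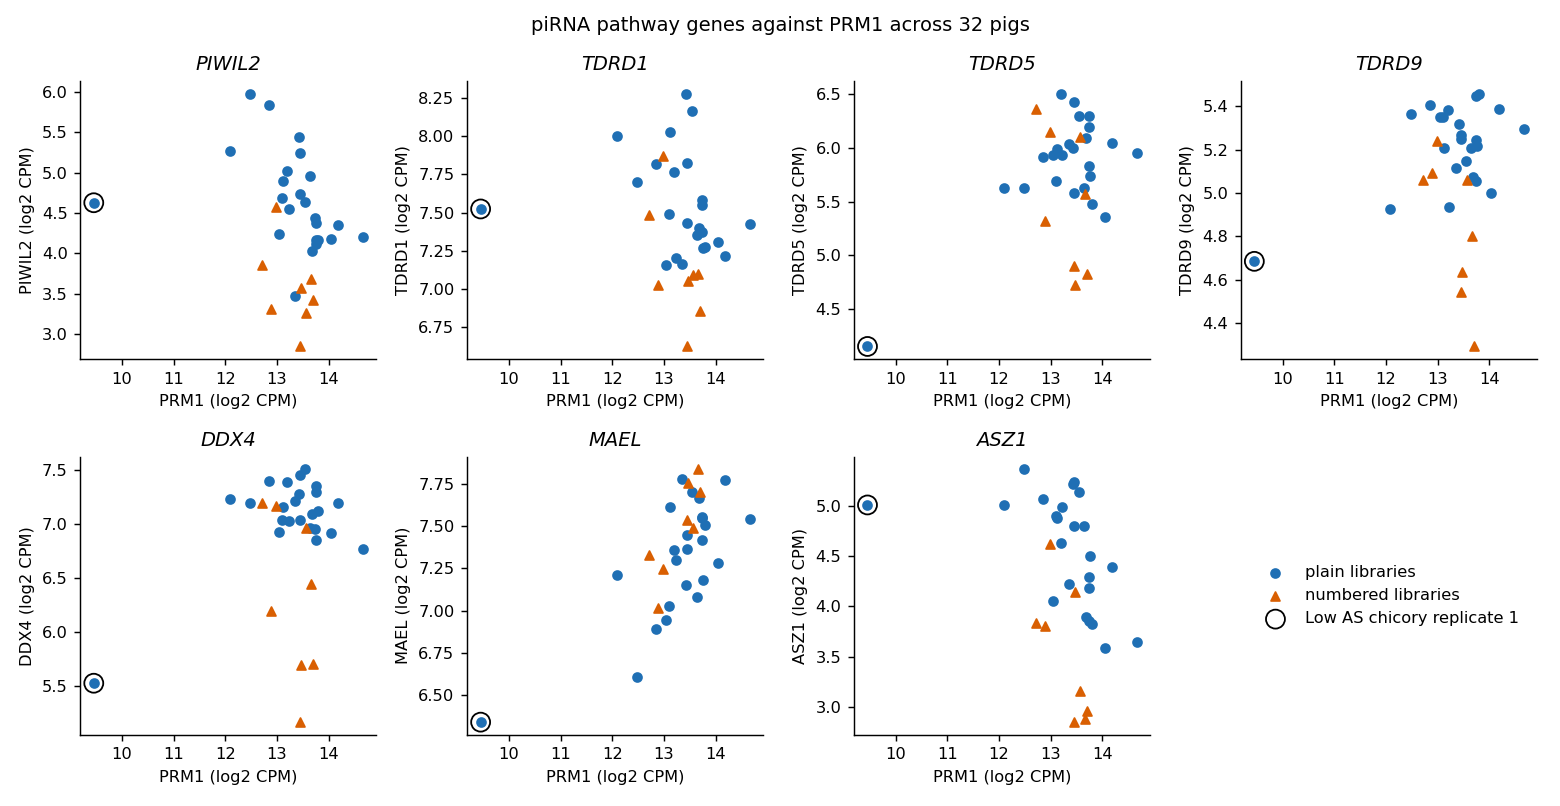
Log2 CPM of the 7 tested pathway genes against that of PRM1 in 32 pigs, with circles for plain and triangles for numbered libraries; an open ring marks Low AS chicory replicate 1. That pig lies far to the left at 700.2 CPM of PRM1, r with PRM1 is positive for MAEL and negative for ASZ1 in both library sets, and the r of TDRD5, TDRD9 and DDX4 in plain libraries depends on the ringed pig.

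The germ cell lists placed the genes in a like order. Each gene was set against the mean log2 CPM of 5 marker lists, in both library sets, which gave 70 relations. PRM1 is 1 of the 17 markers of the elongating spermatid list, so relations to that list and to PRM1 are not separate observations. In plain libraries 14 of 35 passed. The share of all tested genes that would pass against these lists was not computed. MAEL had r = 0.89 with the round spermatid list (rho 0.88, adjusted p of r 0.00035) and 0.85 without Low AS chicory replicate 1 (adjusted p 0.0007). It had 0.77 with the elongating spermatid list (rho 0.64), and 0.63 without that pig. With the Sertoli list it had r = -0.77 (rho -0.74, adjusted p of r 0.00035), and -0.69 without that pig. Without the 2 pigs farthest from the median of each list these 3 values were 0.79, 0.70 and -0.67. MAEL thus followed spermatid markers and ran against markers of the somatic Sertoli cell.

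PIWIL2 and TDRD1 followed the spermatocyte list, with r of 0.55 (rho 0.53, adjusted p of r 0.0261) and 0.58 (rho 0.50, adjusted p of r 0.0223). Without Low AS chicory replicate 1 these values were 0.57 and 0.60. The rho of TDRD1 did not pass (adjusted p 0.0673). ASZ1 had r = -0.52 with the elongating spermatid list (rho -0.67, adjusted p of r 0.0223), 0.47 with the spermatogonia list (rho 0.61, adjusted p of r 0.0405) and 0.59 with the Sertoli list (rho 0.57, adjusted p of r 0.0223). Without that pig these were -0.67, 0.66 and 0.58. PIWIL2 without that pig had -0.68 with the elongating spermatid list and 0.65 with the spermatogonia list (adjusted p of 0.00644 and 0.00694). In numbered libraries 1 of 35 passed, ASZ1 with the elongating spermatid list at -0.95 (rho -0.81, exact adjusted p of r 0.0101). PRM1 itself had r = 0.84 with the round spermatid list and -0.69 with the Sertoli list in plain libraries (adjusted p of 0.00024 and 0.00028).

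**Figure D5:**
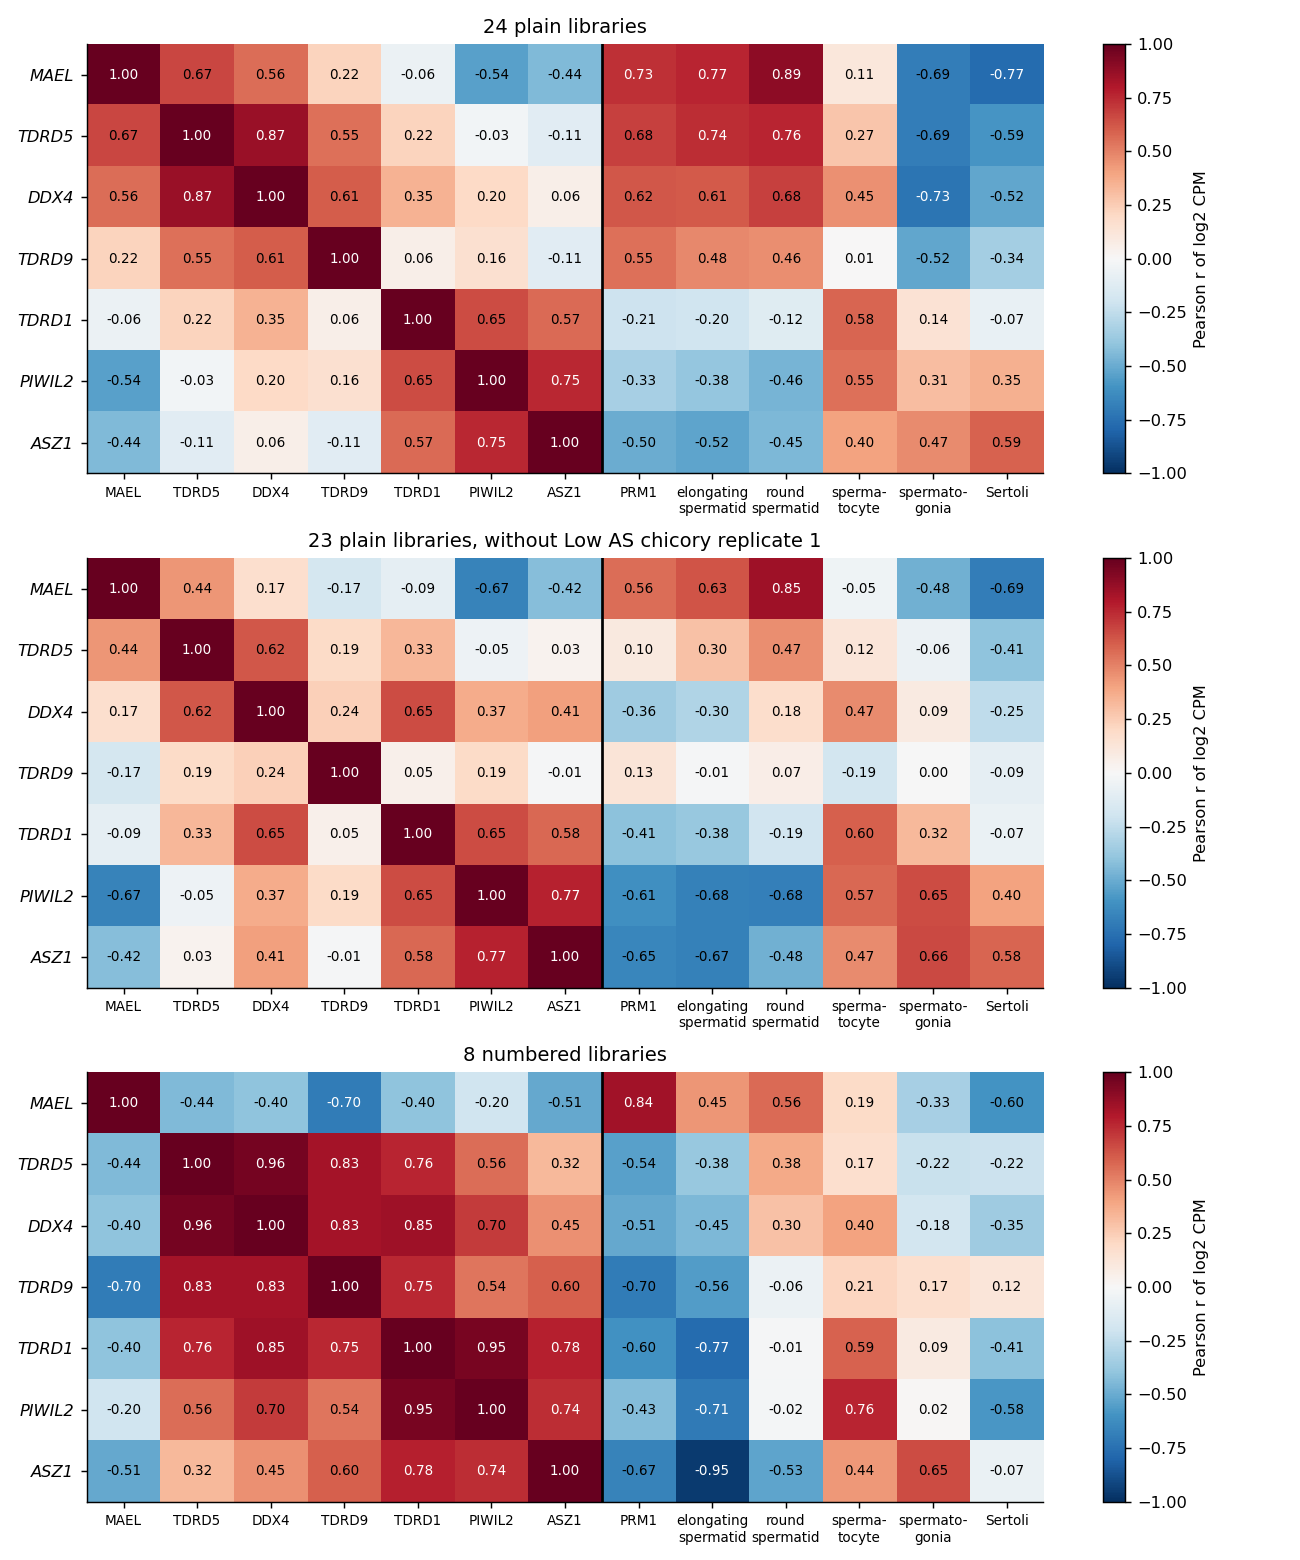
Pearson r of log2 CPM of each tested pathway gene (rows) with the other pathway genes, PRM1 and 5 marker lists (columns) in 24 plain libraries, in the 23 without Low AS chicory replicate 1 and in 8 numbered libraries. PIWIL2, TDRD1 and ASZ1 are positive with each other in all 3 panels, and MAEL is positive with PRM1 and both spermatid lists and negative with PIWIL2 and ASZ1 in all 3. The elongating spermatid list includes PRM1.

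Depth and the share of reads in no gene were set against each gene in the same way, which gave 32 relations with PRM1 included. In plain libraries that share ran from 22.3% to 39.6% of reads. TDRD9 had r = -0.71 with it (rho -0.63, adjusted p of r 0.00192), and -0.63 without Low AS chicory replicate 1 (adjusted p 0.0267). MAEL had 0.23 with it (adjusted p 0.436), and 0.64 without that pig (adjusted p 0.0267). With the log2 of the counts in genes, TDRD5 had 0.54 and DDX4 0.53 (each with an adjusted p of 0.094), and 0.28 and 0.23 without that pig. With all pigs kept, TDRD9 with reads in no gene was the 1 relation of 32 that passed. The part of reads in no gene in the values of TDRD9 and MAEL was not tested.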

How the data were processed

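Testis libraries of 32 pigs were analysed. The deposited files hold raw counts per Ensembl gene, 1 table per pig, with no normalization by the authors. Libraries were made with a TruSeq stranded mRNA kit, per the labels' protocols. Per the submitters' processing notes the tools were STAR, HTSeq 0.6.0, SAMtools 1.3.1, cutadapt 1.8.1 and Trimmomatic 0.33, with no role or order. For the genome build and the strand setting of the counting the sources used here give nothing. Reads of overlapping or antisense genes therefore cannot be told apart. The 5 closing rows, which name no gene, were dropped first. Reads in no gene made up 20.6% to 39.6%. Symbols came from a table that names 11804 of 25322 identifiers.

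Genes were filtered with filterByExpr, scaled by TMM and tested with edgeR 4.0.16 (R 4.3.3) by the quasi-likelihood F test, with Benjamini-Hochberg adjustment over all genes at 0.05. The AS and diet comparisons came from 1 model of 31 pigs with terms for AS, diet and library set. For androstenone, log2 of mg/kg plus 0.5 took the place of AS. The interaction used 1 term per AS and diet combination with library set. Correlations used log2 CPM (prior count 2) with 100000 permutations, or all 40320 for 8 pigs (two-sided). They were computed in numpy 2.4.6, with ranks from scipy 1.17.1. CPM was computed here. Intervals of estimates are 95% intervals from the standard error.

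Groups came from the labels. Replicate numbers follow accession order and pair no pigs. Nothing more says how samples were taken, so p-values measure the spread between pigs, and pigs of 1 sow are related. No 2 libraries of a group agreed within sampling noise: over 108 pairs the smallest chi-square per degree of freedom was 7.24. On simulated counts edgeR recovered 85 of 100 genes at a log2 change of 1 between AS groups, 93 of 100 for diet, and 84 of 100 at a slope of 0.5 for androstenone, each among 13025 genes. False calls were 7, 11 and 8. The simulation held no shift between library sets and no related pigs. Changes as small as those estimated for the pathway genes were not simulated, so recovery of such changes is not known. The genes named are all pathway genes, PRM1, the 2 genes of the wider list with the smallest p in each comparison and the 3 nearest genes of each pathway gene, of which 1 is not reported here. The pathway genes and all lists were chosen with earlier results of these data known. Alternatives were DESeq2 1.42.0, limma 3.58.1 (voom), RLE scaling, no filter, other covariates, single library sets, sow as a block and leaving out each pig. The list medians and the PIWIL4 fits without Low AS chicory replicate 1 were chosen after seeing the data. So were the relations of PRM1 with the lists, and of the genes with depth and reads in no gene. The design planned 45 pairs, of which 21 had both genes tested.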

Additional observations from a re-analysis of the deposited data

Results flagged for a closer look

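In 36 sets of 1 gene in 1 group, 10 values lay far from the others of their group, measured as the gap to the nearest pig over the range of the group. They came from 4 pigs. Chance alone gives such a value in about 1 of 20 groups, and values of the same pig are not independent.

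Low AS chicory replicate 1 gave 6 of them. PIWIL4 was high there at 11.5 CPM. TDRD5 at 17.4 CPM, TDRD9 at 25.4 CPM, MAEL at 80.7 CPM, DDX4 at 45.8 CPM and PRM1 at 700.2 CPM were low. PIWIL2, at 24.4 CPM, TDRD1, at 184 CPM, and ASZ1, at 31.9 CPM, were inside the range of the other pigs. The same pig had the lowest round spermatid level (6.996 mean log2 CPM, next lowest 7.905) and elongating spermatid level (7.27, next lowest 9.11), and the highest Sertoli level (5.95, next highest 5.72). It also had the fewest counts, 1855174, and the highest share of reads in no gene, 39.6%. The part of these differences in the values of the pathway genes was not tested.

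High AS control replicate 3 was low for TDRD5 at 29.6 CPM and for DDX4 at 35.6 CPM. High AS chicory replicate 2 was low for TDRD9 at 19.3 CPM. Low AS control replicate 3 was low for DDX4 at 51.6 CPM. These 3 pigs were numbered libraries, and their MAEL levels were 186, 208 and 216 CPM, above the median of 167 CPM over all pigs.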

How the results depend on the processing

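None of the 7 tested pathway genes was called in any comparison under any alternative, or when any 1 of 31 pigs was left out. The count of all genes called ran from 0 to 9 for androstenone over 15 alternatives, from 1 to 4 with single pigs left out, and from 0 to 1 for diet, while it was 0 for AS in every fit. For AS by diet it was 0 to 1. The slope of ASZ1 stayed below 0 in every fit. No paired analysis was possible by replicate number because these numbers follow accession order, and pigs of the same sow were compared with sow as a block. Signs that changed are values within about 1 standard error of 0 in most cases, and the cause was not tested.

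For High AS minus Low AS, sow as a block gave log2 differences of 0.04 for PIWIL2, 0.15 for TDRD1, 0.048 for MAEL, 0.26 for DDX4 and 0.063 for ASZ1. Numbered libraries alone gave 0.43 for PIWIL2, 0.19 for TDRD1, -0.0020 for TDRD9, -0.15 for PRM1 and 0.081 for PNLDC1, and plain libraries alone 0.015 for MAEL. Carcass weight as a covariate, which uses 29 pigs, gave 0.19 for PIWIL2, 0.016 for DDX4 and 0.035 for ASZ1. Index set in place of library set gave 0.053 for PIWIL2 and 0.053 for DDX4, and no library set term gave -0.048 for TDRD9 and 0.025 for MAEL. Without lane 7 PIWIL2 had 0.025 and DDX4 0.095, and limma voom gave 0.024 for DDX4. With single pigs left out, the estimate ran from -0.087 to 0.076 for DDX4, from -0.057 to 0.036 for MAEL, from -0.18 to 0.088 for PIWIL2 and from -0.014 to 0.051 for TDRD9.

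For androstenone, sow as a block gave slopes of 0.082 for TDRD1, 0.063 for TDRD5, 0.073 for DDX4, 0.047 for MORC1 and 0.027 for RNF17. Without lane 7 TDRD5 had 0.0046, and carcass weight gave -0.00043 for MAEL. For diet, sow as a block gave 0.055 for PIWIL2, 0.10 for ASZ1 and -0.40 for PRM1. Numbered libraries alone gave 0.032 for TDRD5, 0.040 for DDX4 and -0.21 for PRM1. TDRD5 had 0.047 without lane 7 and 0.0013 without the 2 libraries that stand apart, and PRM1 had -0.069 by limma voom and -0.057 with index set. With single pigs left out, diet ran from -0.15 to 0.034 for TDRD5, from -0.062 to 0.016 for TDRD9 and from -0.012 to 0.20 for PRM1. For AS by diet, no library set term gave -0.14 for TDRD1, -0.023 for TDRD5 and -0.10 for DDX4, and leaving out the 2 libraries gave -0.089, -0.14 and -0.14. With single pigs left out it ran from -0.55 to 0.0067 for PIWIL2, from -0.10 to 0.18 for TDRD1, from -0.061 to 0.25 for TDRD5 and from -0.10 to 0.049 for TDRD9.

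Leaving out the 2 libraries that stand apart removes 1 from each library set. In numbered libraries 0 of 7 relations to PRM1 then passed and 1 of 21 pairs, among fewer pigs. In plain libraries r was then -0.36 for DDX4 with PRM1, -0.19 for TDRD9 with the spermatocyte list, -0.0096 for TDRD9 and -0.30 for DDX4 with the elongating spermatid list, -0.046 for MAEL with the spermatocyte list, 0.089 for DDX4 with the spermatogonia list, 0.034 for TDRD5 with ASZ1 and -0.17 for TDRD9 with MAEL. In numbered libraries it was -0.15 for TDRD5, -0.082 for TDRD9 and -0.073 for DDX4 with the spermatocyte list, and 0.20 for ASZ1 with the Sertoli list. Under RLE scaling, numbered libraries gave -0.019 for PIWIL2 with the spermatogonia list, and 0.016 for PIWIL2, 0.034 for TDRD1 and 0.0072 for TDRD9 with the round spermatid list. With the share of reads in no gene, r without the 2 libraries was 0.034 for TDRD5 and 0.30 for PRM1 in plain libraries, and -0.058 for PIWIL2 and -0.11 for ASZ1 in numbered ones. With the log2 of the counts in genes it was -0.31 for MAEL and -0.28 for PRM1 in plain libraries, and -0.17 for PIWIL2 in numbered ones.

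Depth limits PIWIL4, which 3 counts would place at 0.609 to 1.09 CPM in the libraries where it had 0.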

Other observations

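The pig on chicory without an AS label entered no group comparison. It had 18.5 CPM of PIWIL2, 143 CPM of TDRD1, 60.7 CPM of TDRD5 and 40.5 CPM of TDRD9. It had 122 CPM of DDX4, 123 CPM of MAEL, 16.3 CPM of ASZ1 and 8467 CPM of PRM1, and PIWIL4 had 0 counts. Its TDRD1 was the lowest of the 24 plain libraries, and its values of the other tested genes lay inside their ranges.

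Across the 8 numbered libraries the negative signs of PRM1 with 6 of the 7 tested genes, and the positive sign with MAEL, were the same in 8 libraries and in the 7 without High AS control replicate 3. Those 7 are part of the 8, so their signs are not a separate observation, and none of the negative relations passed. In plain libraries 4 of 7 signs were positive, and 3 of 7 without Low AS chicory replicate 1.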
